A study of Mus musculus with 10 samples.

Results

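The long intergenic noncoding RNAs (lincRNAs) that were abundant in interscapular brown adipose tissue (iBAT) of high-fat-diet-fed mice were described in 5 Axl KO and 5 wild-type (WT) animals. They were the genes of the lincRNA class of the GENCODE M21 annotation (GRCm38) chosen by a mean above 5 CPM (counts per 1000000 counts of the file total) over the 10 mice, without the imprinted H19 and Meg3. Of 5247 lincRNA genes listed, 1478 had at least 1 count, 70 lay above the threshold and 68 were kept, beside 9911 protein-coding genes above the same threshold and 41249 genes in all. Because the mean level selected the 68 genes, their levels are a description, whereas the genotype played no part in the selection.

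Male Axl KO mice lack the receptor tyrosine kinase AXL constitutively in the whole body, through a knockout-first (tm1a) cassette that modified embryonic stem cell clones carried in an intron of Axl, and were compared with wild-type littermates. According to the series record, both genotypes were put on a high-fat diet (HFD) at 6 to 8 weeks of age and kept on it for 24 weeks at standard room temperature. One library was made per mouse from a whole depot, so each value averages over adipocytes, vessels, nerves and immune cells, and fewer cells of a type cannot be told apart from less RNA per cell. The libraries held 5431014 to 9580215 counts, any pair of tables differed by far more than counting noise, and each mouse counted as 1 replicate.

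Axl, the targeted gene, had 3 to 15 counts in Axl KO and 224 to 383 counts in WT mice, a log2 fold change of -4.77 ± 0.20 (SE). Markers of the labelled tissue were high, since 12 brown adipocyte markers summed to 7183 to 11576 CPM of the file total, and B and T cell markers were near 0, at 0.76 to 2.80. Skeletal muscle markers summed to 861 to 4281 CPM of the file total in WT mice and to 6.62, 25.4, 635, 1870 and 3407 in Axl KO mice, and all 11 were lower in Axl KO without passing the test.

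LincRNAs are transcribed from their own genes, for the most part between protein-coding genes, and carry no long reading frame. Among the members, Gdap10, Gm45159 and Lncbate1 lie inside the span of a protein-coding gene. Malat1 and Neat1 are nuclear: the former gathers in speckles beside splicing factors, and the latter is the scaffold of paraspeckles. Rmrp is the RNA component of the RNase MRP ribonucleoprotein, which processes ribosomal RNA, and several other lincRNAs are hosts whose introns release small nucleolar RNAs (snoRNAs) or microRNAs. Most remaining members have no role that is firmly known in fat, with the exception of Lncbate1, a brown-fat-enriched transcript that the brown adipocyte programme needs.

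Together the 68 lincRNAs held 1.20 to 1.46% of all counts in Axl KO and 1.27 to 1.37% in WT mice. The distribution was steep: 4 genes lay above 1000 CPM of the file total, 9 above 100, 18 above 20 and 40 above 10. Levels are given below as CPM after normalisation of library size by the trimmed mean of M values (TMM), unless they are named as CPM of the file total. The first 5 genes took 86.7 to 90.0% of the members' counts in each mouse, and Malat1 alone held 0.56 to 0.66% of all counts.

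**Figure D1:**
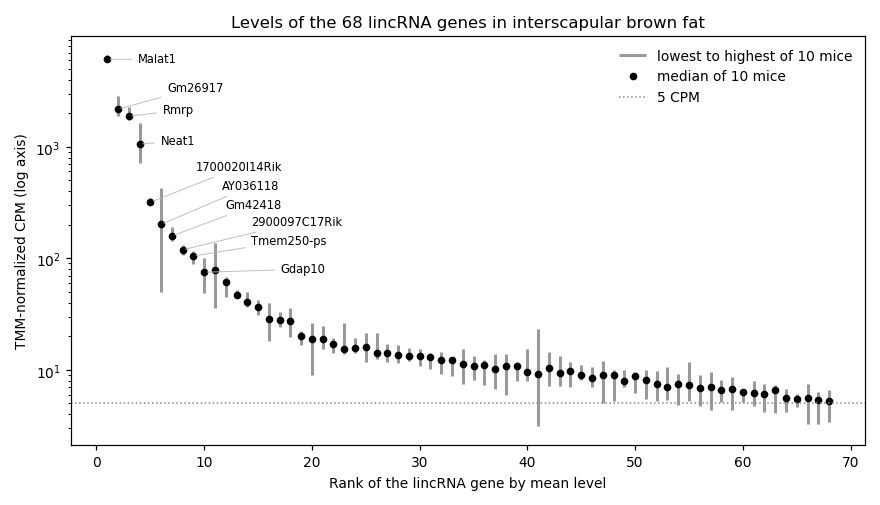
Level of each of the 68 lincRNA genes (vertical axis, TMM-normalized CPM, log scale) by rank of mean level (horizontal axis), with the median of 10 mice as a point and the range as a bar. The first 4 genes stand above the rest, AY036118 spans 49.8 to 427 and 2310069B03Rik 3.12 to 23.3, while most other genes have short bars.

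The order by counts favours long transcripts. Per kilobase of exon, Rmrp led with 6862 CPM of the file total, followed by Malat1 with 880, Gm26917 with 669, AY036118 with 214, Gm44386 with 139 and Gm42418 with 86.8. Neat1, whose longest transcript has 20771 bases, came seventh with 53.0 per kilobase. The shortest member thus had the highest level per kilobase.

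Rmrp (ENSMUSG00000115420) occupies chr4:43492783-43493063 on the minus strand (GRCm38), in 1 exon of 281 bases, 163 bp from the start of Ccdc107 on the other strand. Its whole annotated transcript is shown because it is the member with the highest level per kilobase.
Rmrp: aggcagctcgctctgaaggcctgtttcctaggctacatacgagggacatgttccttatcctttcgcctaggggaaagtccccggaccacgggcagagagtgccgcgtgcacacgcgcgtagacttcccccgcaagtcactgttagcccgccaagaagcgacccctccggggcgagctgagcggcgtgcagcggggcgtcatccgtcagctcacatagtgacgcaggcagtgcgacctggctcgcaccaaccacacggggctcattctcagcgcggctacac
Rmrp had 2118, 2258, 1926, 1820 and 1990 CPM in Axl KO and 1823, 1776, 2006, 1745 and 1810 in WT mice. The groups overlapped, and WT replicate 3 lay above 3 Axl KO mice. The means were 2022 ± 170 in Axl KO and 1832 ± 102 in WT (SD, n = 5 each), a log2 fold change of 0.14 ± 0.07 (SE) with an adjusted p = 0.601 by edgeR's quasi-likelihood test. A second Rmrp entry of the annotation, classed as a ribozyme (ENSMUSG00000088088), carried the same count in all 10 mice, so reads were counted for both entries of the locus.

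Malat1 (ENSMUSG00000092341) and Neat1 (ENSMUSG00000092274) are neighbours on chromosome 19, at 5795690-5802672 and 5824708-5845478 on the minus strand. As background, the long forms of both are not polyadenylated: RNase P cuts them after an A-rich stretch that folds back on U-rich motifs into a triple helix. The 100 bases that end at the A-rich motif AAAGCAAAA are shown for both, with that motif and the U-rich motif TTTGCTTT in capitals.
Malat1: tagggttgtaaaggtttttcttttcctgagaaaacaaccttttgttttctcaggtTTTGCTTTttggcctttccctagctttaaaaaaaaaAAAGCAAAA
Neat1: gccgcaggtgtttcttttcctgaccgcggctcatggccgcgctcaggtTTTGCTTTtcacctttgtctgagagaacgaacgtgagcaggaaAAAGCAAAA
The Malat1 stretch is at chr19:5795982-5796081 and the Neat1 stretch at chr19:5824708-5824807, both minus strand. The A-rich motif starts at base 6683 of 6983 in the longest Malat1 transcript and at base 20763 in Neat1, where it is the very end. On the transcript strand, 4 of the 68 longest transcripts (5.88%) held the A-rich motif and 2, Malat1 and Neat1, held both motifs within 100 bases.

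Malat1 measured 6679, 5740, 6184, 5860 and 6467 CPM in Axl KO and 5734, 5982, 6361, 6511 and 5892 in WT mice. Its range across all mice was among the narrowest, with a highest-to-lowest ratio of 1.16. The means, 6186 ± 396 and 6096 ± 327, differed by 0.02 ± 0.06 on the log2 scale (adjusted p = 0.945, edgeR).

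Neat1 measured 1634, 1610, 1047, 778 and 710 CPM in Axl KO and 1090, 1135, 903, 1065 and 1031 in WT mice. A pair of values stood above and another pair below every WT mouse, so the Axl KO mice bracketed the WT mice, with a coefficient of variation of 38.4% against 8.40%. The means were 1156 ± 444 and 1045 ± 87.8 (log2 fold change 0.15 ± 0.21, adjusted p = 0.867, edgeR). The pair of high mice, Axl KO replicates 1 and 2, were also the mice with the lowest skeletal muscle marker sums, 25.4 and 6.62 CPM of the file total; the part of muscle RNA in the Neat1 values was not tested. Without Axl KO replicate 1 the fold change of Neat1 was -0.01, and without replicate 2 it was close to 0 as well.

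**Figure D2:**
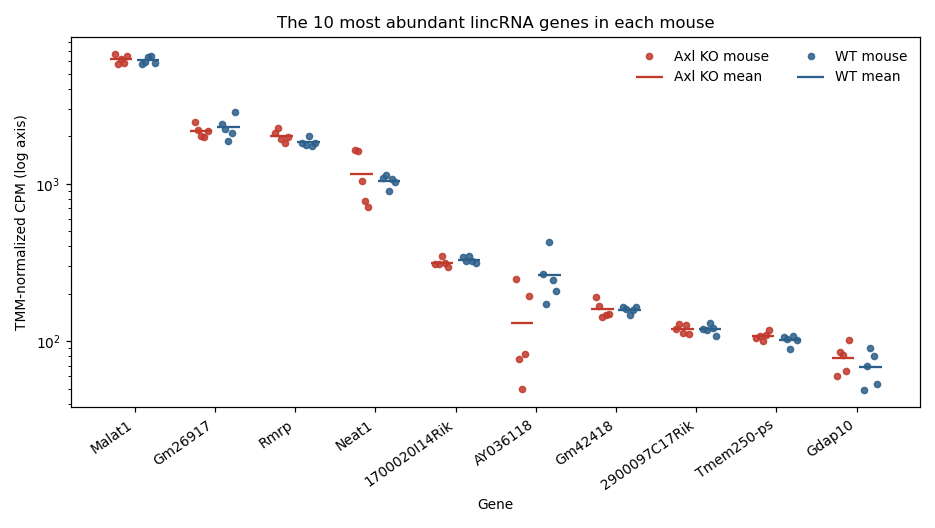
TMM-normalized CPM (vertical axis, log scale) of the 10 lincRNA genes with the most counts in each Axl KO (red) and WT (blue) mouse, with a line at each group mean. Both genotypes overlap for every gene, Neat1 spreads from 710 to 1634 in Axl KO, and AY036118 is below 83 in 3 Axl KO mice.

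The messenger RNAs of proteins that Malat1 and Neat1 are known to meet moved little, and the proteins themselves were not measured. Of 12 paraspeckle proteins, all tested, 3 had a higher and 9 a lower fitted value in Axl KO and 0 passed the test (median log2 fold change -0.05 against 0.00 over all tested genes). Taf15, an RNA-binding protein, had 10.6 ± 1.68 CPM in Axl KO and 12.8 ± 1.31 in WT (-0.27 ± 0.12, unadjusted p = 0.0484, edgeR). Nono, a core paraspeckle protein, had 66.1 ± 2.73 and 63.0 ± 3.76. Of 18 nuclear speckle and splicing factors, 8 were higher, 10 lower and 0 passed; Srsf6, a splicing activator, came nearest with 0.12 ± 0.06 (unadjusted p = 0.0624, edgeR).

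Gm26917, Gm42418 and AY036118 lie together on chromosome 17, in and beside the 1849-bp 18S ribosomal RNA pseudogene Rn18s-rs5 of RefSeq. Gm26917 (39843013-39846341, plus strand) ends 12 bp before that locus, and Gm42418 (39846958-39848788, plus strand) overlaps it. AY036118 (39847113-39848035, minus strand) is the reverse complement of bases 156 to 1078 of Gm42418. Reads of ribosomal RNA cannot be told apart from those of Gm42418 or AY036118, whichever lies on the same strand. How reads that match several ribosomal repeats were handled is not given in the sources used here. The 3 genes took 0.22 to 0.33% of all counts.

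AY036118 was the member with the largest fitted difference and the widest spread. It measured 248, 77.4, 49.8, 82.5 and 193 CPM in Axl KO and 269, 172, 427, 243 and 210 in WT mice. Axl KO replicates 2, 3 and 4 were below every WT mouse, while replicates 1 and 5 lay within the WT range. The means were 130 ± 85.7 and 264 ± 97.8, and the log2 fold change was -1.02 ± 0.39 (unadjusted p = 0.0225, adjusted p = 0.571, edgeR). The two-sided exact permutation test over all splits of the mice into groups of 5 gave p = 0.0635, where 0.00794 is the smallest it can give.

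Gm42418, on the opposite strand of the same bases, held 159 ± 19.5 CPM in Axl KO and 159 ± 7.92 in WT, and Gm26917 held 2163 ± 193 and 2288 ± 365. Across the 10 mice Gm42418 and Gm26917 varied together (Pearson r = 0.71, Spearman rho = 0.85; r = 0.75 without the 2 mice farthest from the median), whereas Gm42418 and AY036118 had r = 0.29 and rho = 0.19 (r = -0.20 without the 2 farthest mice, 0.64 within Axl KO and -0.75 within WT). These pairs were chosen after their values were seen and are therefore given without a p. AY036118 had 427 to 3689 counts and Gm42418 796 to 1511, although the former lies wholly inside the latter, so counts on the 2 strands were kept apart.

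1700020I14Rik, a transcript of chromosome 2, had 316 ± 19.1 CPM in Axl KO and 330 ± 15.1 in WT, 2900097C17Rik had 120 ± 8.18 and 119 ± 8.16, and Tmem250-ps had 108 ± 6.22 and 101 ± 6.99. Gdap10 had 78.4 ± 16.7 and 68.5 ± 17.9, with a range of 48.7 to 101. Among the first 5 members, 0 of 10 pairs passed an adjusted p of 0.05 across the mice (lowest adjusted p = 0.908, permutation test with 100000 resamples). By the same test 0 pairs had an unadjusted p under 0.05. The largest r was 0.49, between Rmrp and Neat1 (rho = 0.19, and r = -0.57 without the 2 farthest mice). Within a genotype, with 5 mice each, that pair had r = 0.81 in Axl KO and -0.89 in WT.

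In the comparison of genotypes, which asks what loss of AXL does to iBAT under HFD, 0 of the 68 lincRNAs passed an adjusted p of 0.05 in edgeR, and 0 passed in DESeq2. The background was 0.00728% of 13739 tested genes, namely Axl itself. In Axl KO, 34 members had a higher and 34 a lower fitted value. The median log2 fold change was 0.00, the range -1.02 to 0.45, and 56 of the 68 lay within 0.25 of 0, while the median SE was 0.13. At an unadjusted p under 0.05 stood 7 of 68 members (10.3%), against a background of 8.4% of all tested genes. Of these, 6 were lower in Axl KO, where the background was 3.86%, and 1 was higher, where it was 4.54%. For 0 of 68 members were the groups free of overlap, against 1.35% of all tested genes. The share over both directions is near the background; of the 6 lower genes (8.82%) 2 are 1 locus and AY036118 lies in ribosomal sequence. Without WT replicate 5, the count at an unadjusted p under 0.05 was 3.

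**Figure D3:**
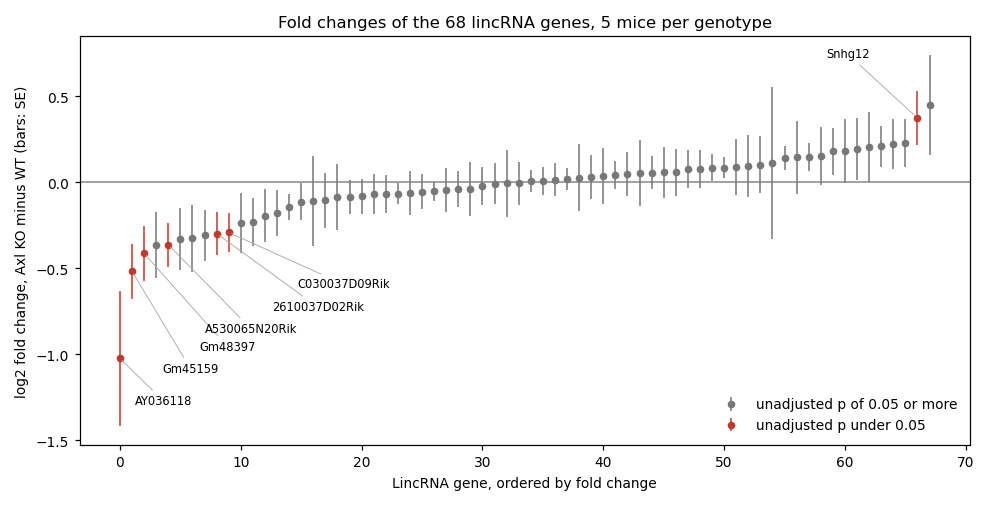
Log2 fold change of each lincRNA gene, Axl KO minus WT, with its SE (vertical axis), for the 68 genes in order of the fold change (horizontal axis). The genes at an unadjusted p under 0.05 are in red: 6 lie at the low end, from -1.02 to -0.29, and Snhg12 at 0.38.

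Besides AY036118, the lower genes at an unadjusted p under 0.05 were low-level transcripts. Gm45159 (ENSMUSG00000109125, chr7:90887072-90940052, plus strand) lies inside the synaptic scaffold gene Dlg2 on the same strand and shares an exon with it. It measured 4.48, 4.36, 6.30, 6.99 and 5.65 CPM in Axl KO and 6.96, 9.52, 7.63, 7.05 and 8.56 in WT mice. Axl KO replicate 4 alone reached above the lowest WT mouse. The log2 fold change was -0.52 ± 0.16 (unadjusted p = 0.0068, adjusted p = 0.571, edgeR; exact permutation p = 0.0159). Dlg2, with 3 to 15 counts per mouse, had 1.14 ± 0.44 and 1.37 ± 0.43 CPM.

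A530065N20Rik and Gm48397 form 1 locus on chromosome 13: Gm48397 (60068641-60074017) lies within the span of A530065N20Rik (60029711-60116669) on the plus strand. A530065N20Rik measured 19.8, 24.6, 21.2, 31.3 and 20.3 CPM in Axl KO and 26.5, 28.04, 36.1, 30.3 and 30.1 in WT mice (-0.36 ± 0.13, unadjusted p = 0.0140, edgeR). Axl KO replicate 4 was the exception to lower values. Gm48397 measured 8.18, 9.32, 6.76, 12.2 and 8.85 CPM in Axl KO and 10.2, 10.1, 13.9, 12.9 and 13.2 in WT mice (-0.41 ± 0.16, unadjusted p = 0.0222, edgeR). Here too Axl KO replicate 4 was the highest of its group. Both genes varied together over the 10 mice (r = 0.91, rho = 0.90, and r = 0.95 without the 2 farthest mice). The pair was chosen after its values were seen and is given without a p. Since the 2 genes share a locus and a strand, they are not independent observations. Their nearest tested protein-coding gene, Gas1, a hedgehog co-receptor 147654 and 108724 bp away, had 37.7 ± 3.90 and 41.5 ± 5.03 CPM.

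C030037D09Rik starts 132 bp from Msi2, an RNA-binding translational regulator, on the other strand. It measured 10.8, 9.92, 8.16, 10.9 and 8.66 CPM in Axl KO and 12.3, 10.9, 10.6, 12.2 and 13.3 in WT mice (-0.29 ± 0.11, unadjusted p = 0.0246, edgeR). The highest Axl KO mice met the lowest WT mice. Msi2 itself had 116 ± 5.87 and 112 ± 5.22 CPM.

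2610037D02Rik, 3023 bp from the chromatin remodeller gene Arid2, measured 6.17, 8.42, 6.30, 8.88 and 7.34 CPM in Axl KO and 8.60, 8.89, 9.60, 9.11 and 9.31 in WT mice (-0.30 ± 0.12, unadjusted p = 0.0339, edgeR). Its WT values kept within 1 CPM of each other, and 1 Axl KO mouse reached into them. With 39 to 84 counts per mouse, counting error alone gives a coefficient of variation of 12.8%.

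Snhg12 was the higher gene, a host of snoRNAs on chromosome 4. It measured 9.57, 15.5, 11.9, 12.5 and 13.0 CPM in Axl KO and 8.19, 9.52, 12.1, 10.8 and 7.43 in WT mice, a log2 fold change of 0.38 ± 0.16 (unadjusted p = 0.0323, adjusted p = 0.571, edgeR). Axl KO replicate 1 and WT replicate 3 made the groups overlap. The exact permutation test gave p = 0.0635. As mice were left out in turn, the unadjusted p by edgeR stayed under 0.05 in 4 of 10 fits.

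**Figure D4:**
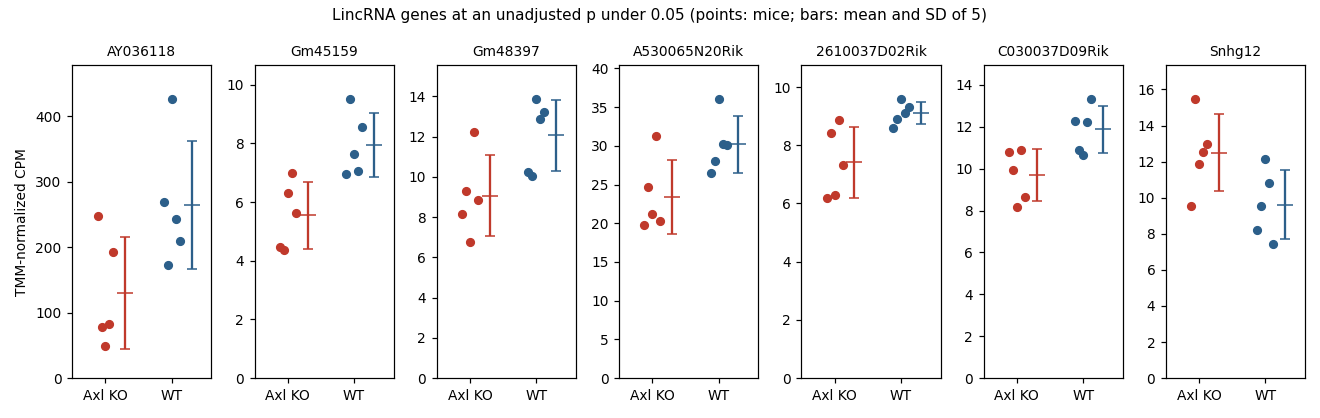
TMM-normalized CPM (vertical axis, from 0) of the 7 lincRNA genes at an unadjusted p under 0.05, 1 panel per gene, with a point per mouse and the mean and SD of 5 mice beside it. In each panel the groups overlap, and Axl KO replicate 4 is the highest of its group for 5 of the 6 lower genes.

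The snoRNA and microRNA hosts are the members whose span holds an annotated small RNA on the same strand. Whether each small RNA lies in an intron was not checked, and its processing was not measured. The annotation placed snoRNAs inside 6 members: Snhg12 with 5 entries and Snhg20, 9430037G07Rik, Snhg6, Snhg18 and 2900076A07Rik with 1 each. Apart from Snhg12 none had an unadjusted p under 0.05. Snhg20 had 38.1 ± 3.19 CPM in Axl KO and 35.8 ± 3.21 in WT, 9430037G07Rik 10.5 ± 1.79 and 11.01 ± 1.06, and Snhg6 7.15 ± 0.64 and 6.10 ± 1.06. For Snhg18 the values were 4.85 ± 1.26 and 5.19 ± 0.84, and for 2900076A07Rik 5.50 ± 0.84 and 4.83 ± 1.09. Of 15 tested genes of a wider list of snoRNA hosts, 7 were higher, 8 lower and 0 passed. In that list Snhg3 had 205 ± 17.98 CPM in Axl KO and 175 ± 22.7 in WT (0.23 ± 0.09, unadjusted p = 0.0249, edgeR).

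MicroRNAs lie inside 3 members. 6720427I07Rik, on chromosome 13, holds the let-7a-1, let-7f-1 and let-7d hairpins, a family known for repressing growth-promoting messages. Snhg20 holds miR-6516, and 2900076A07Rik holds miR-1839. The mature 5′ arms from RefSeq (GRCm38.p6) are shown because they tell which microRNAs these lincRNAs could carry; the seed, bases 2 to 8, is in capitals.
let-7a-5p: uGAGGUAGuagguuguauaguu
let-7f-5p: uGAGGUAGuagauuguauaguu
let-7d-5p: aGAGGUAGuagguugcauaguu
miR-6516-5p: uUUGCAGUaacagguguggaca
miR-1839-5p: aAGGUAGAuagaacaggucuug
The 3 let-7 arms share 1 seed, and the others have a seed of their own. The let-7 host 6720427I07Rik had 20.7, 19.8, 24.5, 18.9 and 15.2 CPM in Axl KO and 17.5, 19.04, 21.2, 18.2 and 18.5 in WT mice (0.08 ± 0.11, adjusted p = 0.860, edgeR). Its highest and lowest values were both in Axl KO. Of 7 tested noncoding microRNA hosts in a list of such genes, 3 were higher, 4 lower and 0 passed; Mir99ahg, which came nearest, had 11.1 ± 1.66 and 13.5 ± 3.92 CPM (unadjusted p = 0.136, edgeR). Mature microRNAs were not measured in these libraries.

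Many members start beside a protein-coding gene. For 18 of 68 (26.5%) the nearest tested protein-coding gene starts within 1 kb, 16 of them on the other strand. Among the 142 other lincRNAs above 1 CPM, 35 have such a neighbour. Members with a near start on the other strand are called divergent here, although whether the genes point away from each other was not checked. Rmrp shares exon bases with Ccdc107, and 1700086O06Rik with Dele1, on opposite strands, so these pairs overlap. The divergent members, with mean levels in CPM of the file total, were Rmrp, 5031425E22Rik at 41.1 beside Kmt2e, A430046D13Rik at 19.6 beside Myl6b, 4632404H12Rik at 16.9 beside Ube2q1, Gm43672 at 16.8 beside Tbl1xr1, Gm5113 at 16.1 beside Zfp146 and AI480526 at 15.9 beside Setd1b. Below these came Fam120aos at 15.001 beside Fam120a, 4930480K23Rik at 13.3 beside Chmp7, C030037D09Rik, 2010320M18Rik at 10.1 beside Pik3r2, 2810414N06Rik at 7.52 beside Edem3, Gm7160 at 7.42 beside Zcchc2, 1110019D14Rik at 7.32 beside 2610001J05Rik, 1700086O06Rik at 5.60 beside Dele1, and Snhg18 beside Sema5a. On the same strand as a near neighbour were 1300002E11Rik at 9.72, beside Map3k13, and 5930430L01Rik at 7.03, beside Gm42791.

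RefSeq promoter windows, from 250 bases before to 50 after a start, were matched to 34 members by symbol, chromosome and strand, and 24 of these windows hold the GENCODE start. The CG dinucleotide, read on either strand alike, occurred a median of 33.5 times in the windows of 10 divergent members and 12.5 times in those of 24 others, against 7 in all 32851 windows. In the windows that hold the GENCODE start, a restriction chosen after seeing the data, the medians were 31 for 7 divergent members and 14 for 17 others. Below are 2 windows that hold both starts of a divergent pair, with CG in capitals (GRCm38.p6).
Gm7160: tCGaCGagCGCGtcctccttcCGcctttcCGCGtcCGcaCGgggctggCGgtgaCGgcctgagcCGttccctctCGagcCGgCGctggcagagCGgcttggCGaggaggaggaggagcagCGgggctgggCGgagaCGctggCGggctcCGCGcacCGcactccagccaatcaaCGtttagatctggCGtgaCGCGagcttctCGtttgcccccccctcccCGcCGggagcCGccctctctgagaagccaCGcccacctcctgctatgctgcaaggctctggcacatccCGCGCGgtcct
Snhg18: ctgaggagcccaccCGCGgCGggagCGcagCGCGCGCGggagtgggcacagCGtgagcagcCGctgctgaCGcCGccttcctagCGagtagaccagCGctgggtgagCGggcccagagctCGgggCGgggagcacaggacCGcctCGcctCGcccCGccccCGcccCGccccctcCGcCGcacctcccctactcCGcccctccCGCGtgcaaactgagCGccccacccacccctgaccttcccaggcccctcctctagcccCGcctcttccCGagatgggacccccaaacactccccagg
The first is chr1:105990233-105990532 and the second chr15:32244613-32244912, both on the minus strand, with 36 and 31 CG. As many or more were in 6.23% and 10.6% of all windows. Zcchc2 starts 124 bp from Gm7160, and Sema5a 148 bp from Snhg18.

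Over the 10 mice the Pearson r of a member and its nearest tested protein-coding gene had a median of 0.24 among the 68 lincRNAs, was positive for 47, and had a median of 0.32 for the 18 within 1 kb. Among the 142 other lincRNAs the medians were 0.06 and, within 1 kb, -0.01. These are descriptions over mice that share a library and its depth in both genes, and the other lincRNAs are lower in level by selection. The highest values were those of Gm7160 with Zcchc2 (0.79), Gdap10 with Nampt (0.76), Gm3289 with Tspan12 (0.75), Tmem250-ps with Nacc2 (0.72) and Dubr with Bbx (0.72). The lowest were those of Gm43055 with Ythdc1 (-0.59) and Fam120aos with Fam120a (-0.58). Gm43055 shares exon bases with Ythdc1 on the same strand, so its counts may hold reads of Ythdc1.

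**Figure D5:**
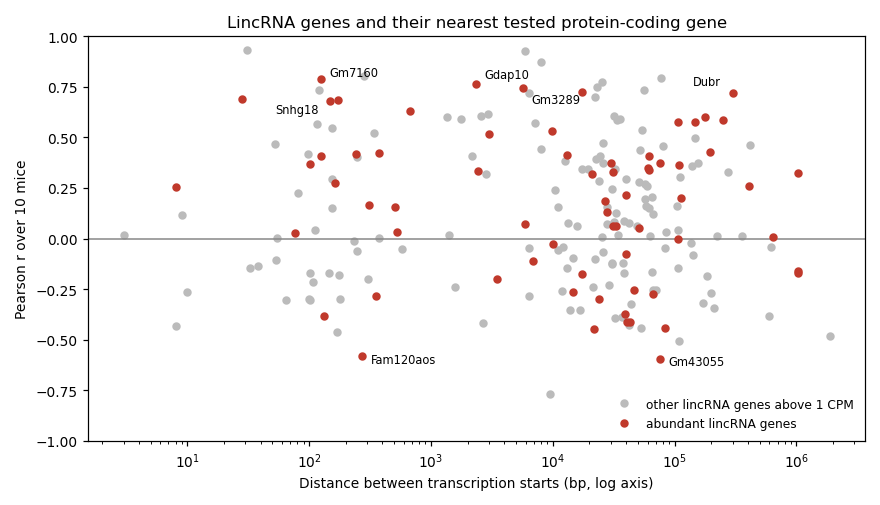
Pearson r over 10 mice (vertical axis) of each lincRNA gene with its nearest tested protein-coding gene by the distance between the starts (horizontal axis, bp, log scale), for the 68 genes (red) and the 142 other lincRNAs above 1 CPM (grey). Red points reach from -0.59 to 0.79, and 15 of the 18 within 1 kb lie above 0.

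Gm7160 had 10.5, 5.56, 6.53, 8.44 and 6.77 CPM in Axl KO and 9.01, 7.09, 5.32, 8.43 and 6.80 in WT mice. Its levels did not separate the genotypes (0.05 ± 0.19), and those of Zcchc2 had means of 53.4 ± 7.24 and 53.8 ± 3.02.

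Gdap10 lies within Nampt on the same strand, 2327 bp downstream of its start. It shares no annotated exon with Nampt, but reads of unspliced Nampt RNA in that stretch cannot be told apart from its own. Nampt makes the precursor of NAD+ from nicotinamide, and had 692 ± 94.2 CPM in Axl KO and 623 ± 77.2 in WT. Gdap10 read 59.9, 84.8, 81.6, 64.5 and 101 CPM in Axl KO and 48.7, 69.1, 90.8, 80.8 and 53.1 in WT mice, a log2 fold change of 0.19 ± 0.18.

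Of 65 neighbouring genes, 6 (9.23%) had an unadjusted p under 0.05, near the background of 8.4% of all tested genes, and 0 passed. Sema5a, which codes for a semaphorin that guides axons and vessels, had 5.46 ± 1.28 CPM in Axl KO and 8.31 ± 1.495 in WT (-0.59 ± 0.18, unadjusted p = 0.0061, adjusted p = 0.571, edgeR). Snhg18, which starts beside it, measured 4.01, 4.66, 6.53, 5.68 and 3.39 CPM in Axl KO and 6.01, 5.18, 5.55, 3.78 and 5.41 in WT mice (-0.08 ± 0.19). It did not separate the groups, although both genes had r = 0.68 over the mice.

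Among the members that vary most, 2310069B03Rik ranged 7.47-fold, from 3.12 to 23.3 CPM, with 12.04, 4.81, 6.41, 5.97 and 23.3 in Axl KO and 14.6, 8.89, 3.12, 9.63 and 11.3 in WT mice. Both the highest and the lowest values came from single mice, Axl KO replicate 5 and WT replicate 3. Gm10032 ranged 3.86-fold, with 74.99, 85.4, 40.3, 83.5 and 138 CPM in Axl KO and 35.6, 50.8, 87.1, 81.3 and 52.7 in WT mice (0.45 ± 0.29, adjusted p = 0.677, edgeR). The white fat markers, a sum made up mostly of Lep (the leptin gene, with a mean of 350 CPM of the file total), came to 307, 323, 674, 276 and 207 CPM of the file total in the same Axl KO mice and to 581, 515, 292, 278 and 558 in the WT mice, so the mice low in Gm10032 were high in that sum. Hoxc9 of the same list was at 0, and the part of white fat in these values was not tested. Gm3289 ranged from 9.03 to 26.1 CPM, with its lowest value in Axl KO replicate 5.

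At the other end, Gm37494 of chromosome 7 kept to 44.6 to 51.7 CPM, a 1.16-fold range with 237 to 424 counts. Lncbate1, which lies inside Zfhx3 on the other strand, had 24.4, 32.8, 29.0, 29.3 and 27.1 CPM in Axl KO and 30.9, 28.3, 27.4, 25.6 and 26.2 in WT mice. The groups covered the same range, with means of 28.5 ± 3.08 and 27.7 ± 2.06 (0.04 ± 0.08, adjusted p = 0.904, edgeR). Of 12 markers of brown adipocytes, 10 had a higher and 2 a lower fitted value in Axl KO, 0 passed the test and 5 had an unadjusted p under 0.05, against the background of 8.4% of all tested genes. Ucp1, the uncoupling protein, had 5561 ± 1198 CPM in Axl KO and 4119 ± 863 in WT (0.43 ± 0.16, unadjusted p = 0.0185, edgeR), and Dio2, which activates thyroid hormone, had 99.6 ± 28.97 and 53.8 ± 15.5 (0.89 ± 0.21, unadjusted p = 0.000973, edgeR). Elovl3, a fatty acid elongase, had 79.5 ± 55.3 and 25.03 ± 11.4 (1.67 ± 0.49, unadjusted p = 0.00503, edgeR). The respiratory chain subunits Cox8b and Cox7a1 were at 0.24 ± 0.06 and 0.14 ± 0.06 (unadjusted p = 0.00231 and 0.0464, edgeR). The rest of the list had smaller differences beside their SE. Cidea was at 0.01 ± 0.08, Ppargc1a at 0.02 ± 0.11, Prdm16 at 0.04 ± 0.12, Zic1 at 0.19 ± 0.16 and Lhx8 at 0.27 ± 0.19. Ebf2 was at -0.09 ± 0.08 and Ppara at -0.20 ± 0.22.

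Among the markers of other cell types 0 passed. Higher and lower fitted values in Axl KO numbered 2 and 4 for endothelial markers, and 1 and 3 for nerve and Schwann cell markers. They numbered 1 and 3 for white fat, 4 and 4 for macrophage, 3 and 2 for erythroid and 0 and 11 for skeletal muscle markers. Higher were, for instance, Emcn of the endothelial list (0.12 ± 0.13), Mbp of the nerve list (0.10 ± 0.07) and Retn of the white fat list (0.49 ± 0.31). Scn7a, a sodium channel of the nerve and Schwann cell list, had 40.2 ± 2.14 CPM in Axl KO and 54.6 ± 5.38 in WT (-0.44 ± 0.07, unadjusted p = 5.61e-05, adjusted p = 0.385, edgeR), and Egfl7, a gene of endothelial cells, had 67.6 ± 10.6 and 83.96 ± 11.7 (-0.31 ± 0.11, unadjusted p = 0.0189, edgeR). In the remaining lists the lowest unadjusted p was 0.122 for the skeletal muscle gene Pvalb (-1.36 ± 0.82), 0.125 for Hoxc8 of the white fat list (-0.48 ± 0.29), 0.269 for the macrophage receptor Csf1r (-0.17 ± 0.14) and 0.488 for the globin Hbb-bt (0.10 ± 0.14), all by edgeR.

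The spread within a genotype was a median of 15.6% of the mean in Axl KO and 12.3% in WT, and 38 of 68 members (55.9%) varied more in Axl KO, against 63.1% of all tested genes. In structure, 13 members (19.1%) have 1 exon, as have 28 of 142 other lincRNAs (19.7%). The median length of the merged exons of a gene was 2699 against 1813 bases. The highest GC content was 69.1%, in Gm26917, and the median 46.6%. An exon was shared with another gene, on either strand, in 21 members, for which counts may hold reads of the other gene where the strand is the same.

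The members not yet given with a level had these mean levels in CPM of the file total. Gm44386 stood at 59.8, Gm20300 at 29.2, Lncpint, a p53-induced transcript, at 14.2, 4632415L05Rik at 13.8, AW112010 at 13.5, Gm20342 at 12.7, 1810058I24Rik at 12.3, Gm43597 at 11.5, AU020206 at 10.4 and Gm21781 at 10.4. Below 10 stood Gm32200 at 9.89, Gm46430 at 9.59, D930016D06Rik at 9.25, 1700096K18Rik at 8.70, 9330102E08Rik at 8.58, BC043934 at 8.48 and BC002059 at 7.90. Dubr stood at 7.30 and Gm43055 at 8.26. Carmn, a transcript of smooth muscle, stood at 6.41, Gm45495 at 6.28, A530017D24Rik at 6.18, Gm30918 at 6.03, Gm30173 at 5.98 and C920006O11Rik at 5.37. By edgeR none of these had an unadjusted p under 0.05 between the genotypes (lowest 0.0606, BC043934). The exact permutation test gave an unadjusted p = 0.0317 for AW112010 and 0.0476 for BC043934. The members just above the threshold were Gm33838 at 5.27, 2900076A07Rik at 5.18 and Snhg18 at 5.03, and just under it were Gm23925 at 4.89, Gm26671 at 4.84 and Ftx at 4.81.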

How the data were processed

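RNA of whole iBAT depots of 5 Axl KO and 5 WT mice was sequenced, with 1 library each. The authors deposited 1 table of raw counts per mouse, with no normalization and no pooling. The paper's methods name Trim Galore and hisat2 and ribosomal RNA depletion, whereas the submitters' processing notes list Trimmomatic 0.36 and STAR 2.6.1c with GRCm38.p5 and the labels name polyA RNA. The counting tool and its strand setting are not given in the sources used here, and the diet dates of the paper differ from those of the series record, which were used. Of 41249 identifiers, 41163 were in GENCODE M21 and 86 were not.

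Groups were taken from the genotype labels. Counts were compared with edgeR 4.0.16 in R 4.3.3 (TMM, quasi-likelihood test) over 13739 genes with a mean above 1 CPM; p-values were Benjamini-Hochberg adjusted over all of them, and a gene passed at an adjusted p under 0.05. Normalised levels are TMM-normalized CPM. The fit was tested on simulated data. Single genes were compared by two-sided exact permutation tests, and correlations across mice by 100000 permutations. DESeq2 1.42.0, other normalizations and filters, a robust fit and mice left out in turn were alternatives. The neighbour of a lincRNA is the tested protein-coding gene with the nearest start.

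The members, the lists and the tests were chosen with earlier results of these data known. Values are printed for the 10 members with the most counts, those at an unadjusted p under 0.05 or without overlap of the groups, snoRNA and microRNA hosts, the 3 members next to the threshold on each side, Axl and the neighbours of the first 2 kinds; from each list, genes at an unadjusted p under 0.05 or the nearest one. Genes described for their spread, their neighbour's r or their role were chosen after their values were seen. Totals between 5431014 and 9580215 limit precision: 3 counts correspond to 0.313 to 0.552 CPM, covering counting error only.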

Additional observations from a re-analysis of the deposited data

Results flagged for a closer look

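Within-group values were checked for 22 named lincRNAs and for their summed share of counts, in 46 groups of 5 mice, and 2 groups held a mouse far from the other 4; chance gives about 1 in 20 groups. 9430037G07Rik, a snoRNA host, was at 7.34 CPM (39 counts) in Axl KO replicate 5 while the other 4 mice of its group held 10.97 to 11.73. Snhg6, also a snoRNA host, was at 7.92 CPM (58 counts) in WT replicate 1 while its group otherwise held 5.16 to 5.92.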

How the results depend on the processing

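The count of lincRNAs past the threshold was 0 under all 8 other settings and with each mouse left out. The count over all tested genes was 1 and rose to 9 with DESeq2, none of them a member. The count at an unadjusted p under 0.05 was 6 or 7 under the other settings and ranged from 3, without WT replicate 5, to 8 as mice were left out; without the 3 members in and beside the 18S pseudogene, an alternative chosen after seeing the data, it was 6. The members' median log2 fold change ranged from -0.02 to 0.01 with mice left out, and the difference of their summed share of counts, 0.01 percentage points, from -0.02 to 0.04. The rule finds 127 genes at a mean above 2 CPM and 40 above 10 CPM in place of 68. All 22 named members kept their sign under the 8 other settings, and 14 kept it with each mouse left out. For those that did not, the ranges were -0.0073 to 0.0471 for Malat1, -0.14 to 0.0097 for Gm26917, -0.0115 to 0.28 for Neat1, -0.0628 to 0.0457 for Gm42418, -0.0273 to 0.0415 for 2900097C17Rik, -0.014 to 0.15 for 6720427I07Rik, -0.098 to 0.0337 for 9430037G07Rik and -0.22 to 0.0093 for Snhg18; the cause was not tested. Same-numbered mice had correlations of -0.36 to 0.37, too few values to decide whether the numbers pair the mice. The main fit did not pair them. With the replicate block in edgeR the counts were 0 members past the threshold, 7 at an unadjusted p under 0.05 and 1 gene in all. The median was then 0.01. Counting error at 20 to 100 reads limits the lowest members.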
